A study of Mus musculus with 18 samples.

Results

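The CCAAT/enhancer binding proteins (C/EBPs) are 6 related transcription factors, and their genes were examined here as targets of PU.1 and of C/EBPα and C/EBPβ themselves. The members were *Cebpa*, *Cebpb*, *Cebpd*, *Cebpe*, *Cebpg* and *Ddit3*, taken by name, and a locus was the gene in mm9 (GENCODE vM1) with 100 kb on either side. The loci held 84 of the 77050 sites bound in at least 1 library of the series. Because the *Cebpa* and *Cebpg* windows overlap, the counts per window were 8 for *Cebpa*, 37 for *Cebpb*, 9 for *Cebpd*, 7 for *Cebpe*, 8 for *Cebpg* and 21 for *Ddit3*, with some sites in both of the first pair.

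C/EBPs bind DNA as dimers through a basic region and a leucine zipper, and they pair freely with each other. C/EBPα, C/EBPβ, C/EBPδ and C/EBPε carry activation domains and drive successive steps of granulocyte, monocyte and macrophage differentiation. C/EBPγ lacks a strong activation domain. Both C/EBPγ and the *Ddit3* product CHOP mostly restrain or redirect their partners. CHOP is best known from the stress response of the endoplasmic reticulum. C/EBPs can bind at their own genes and at those of their relatives, which is the auto- and cross-regulation that these windows address. PU.1, the Ets factor of B cells and macrophages, often binds beside C/EBPs at myeloid enhancers.

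The cells were C10 cells, a derivative of the mouse pre-B line HAFTL that carries a GFP-tagged fusion of C/EBPα with the estrogen receptor (C/EBPαER). β-Est moves the fusion into the nucleus, and induced cells were grown with IL-3 and CSF-1, while control cells received ethanol, the solvent. The labels and the methods of the study give different concentrations of β-Est. C/EBPα was profiled by ChIP-seq at 0 hpi, at 10, 30 and 60 min, and at 3, 12, 24 and 48 hpi, while the 0, 3, 12, 24 and 48 hpi samples served for PU.1 and C/EBPβ. All groups share the same line and the transgene, so the C/EBPα antibody can meet both the fusion and endogenous C/EBPα.

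Each factor had 1 library at each time point, with 2901164 to 24909437 reads, and no control library. Hence no test between time points was possible, and values are reads within 200 bp of a site's centre per 10000000 reads, with exact 95% Poisson intervals that cover counting error only. A site was counted as higher or lower at 48 than at 0 hpi when the ratio of the values was at least 2-fold and its exact 95% counting interval left out 1. The C/EBPα libraries of 10, 30 and 60 min were sequenced on a HiSeq2000 with 50-base reads and the others on a Genome Analyzer with 36- or 40-base reads, so that sequencer and time cannot be told apart there. Reads of 200-bp bins outside all sites were 1.48 to 3.55 times as dense over the *Cebpb* window as over the genome, and 1.02 to 2.31 times over the other windows. Distances are from the transcription start site (TSS) of the nearest member, in the direction of its gene.

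The presence of 3 sequences was searched on both strands: the C/EBP consensus TTGCNNAA, the PU.1 consensus GAGGAAGT and TGATGCAA, which joins a C/EBP and an ATF site and was added after the sequences had been seen. Within 75 bp of the centre, TTGCNNAA was found at 13 of 84 sites (15.5%, 95% Clopper-Pearson interval 8.51% to 25.0%) against 16.3% of all 77050 sites, and GAGGAAGT at 14 (16.7%) against 17.6%. Among the 13 sites with C/EBPα called at 48 hpi, 7 held TTGCNNAA (53.8%, 25.1% to 80.8%), beside 38.3% of all 6568 such sites. Among the 49 sites called for PU.1 alone, 2 held TTGCNNAA (4.08%) and 12 GAGGAAGT (24.5%), beside 5.69% and 24.9% over the genome. The sites of these loci thus held the 2 consensus sequences about as often as bound sites elsewhere.

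The strongest C/EBPα site at each locus that was called at 48 hpi is shown with the 100 bases on either side of its centre (mm9, plus strand, 5′ to 3′), with matches to the 3 sequences in capitals. For *Cebpe*, where no C/EBPα site was called, the site near its TSS is shown. The windows are chr2:167579499-167579699, chr7:35842187-35842387, chr16:15890128-15890328, chr14:55331837-55332037 and chr10:126727452-126727652.
Cebpb +65.2 kb: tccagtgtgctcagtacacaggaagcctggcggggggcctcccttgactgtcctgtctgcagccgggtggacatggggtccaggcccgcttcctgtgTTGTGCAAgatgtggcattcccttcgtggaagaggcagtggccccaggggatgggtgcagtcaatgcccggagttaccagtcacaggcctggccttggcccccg
Cebpg -0.8 kb: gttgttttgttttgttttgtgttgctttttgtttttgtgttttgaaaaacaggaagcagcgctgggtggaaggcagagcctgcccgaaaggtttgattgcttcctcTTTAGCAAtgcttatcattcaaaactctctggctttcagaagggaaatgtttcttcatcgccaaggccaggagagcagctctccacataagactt
Cebpd +2.8 kb: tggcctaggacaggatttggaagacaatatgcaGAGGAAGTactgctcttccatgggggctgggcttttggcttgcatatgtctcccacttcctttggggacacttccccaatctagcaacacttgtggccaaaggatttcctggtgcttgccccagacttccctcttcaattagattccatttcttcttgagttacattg
Cebpe -0.9 kb: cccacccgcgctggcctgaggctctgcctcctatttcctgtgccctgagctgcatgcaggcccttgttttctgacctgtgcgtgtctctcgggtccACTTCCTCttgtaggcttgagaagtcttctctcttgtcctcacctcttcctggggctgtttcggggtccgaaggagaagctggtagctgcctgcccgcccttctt
Ddit3 -0.3 kb: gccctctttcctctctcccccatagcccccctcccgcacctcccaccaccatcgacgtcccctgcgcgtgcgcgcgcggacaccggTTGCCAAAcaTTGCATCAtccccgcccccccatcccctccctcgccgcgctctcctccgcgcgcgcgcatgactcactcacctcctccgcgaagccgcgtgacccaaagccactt
At *Cebpb* the TTGCNNAA match lay 3 bases before to 4 bases after the centre. At *Ddit3* a TTGCNNAA match and a TGATGCAA match stood side by side, the latter across the centre. At *Cebpd* the only match was one for PU.1, and no TTGCNNAA was found in the window.

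A further 4 sites are shown because they carried the clearest differences between factors, and they were picked after their values were seen. They lie at chr2:167474866-167475066, chr2:167536185-167536385, chr2:167585535-167585735 and chr10:126750003-126750203.
Cebpb -39.4 kb: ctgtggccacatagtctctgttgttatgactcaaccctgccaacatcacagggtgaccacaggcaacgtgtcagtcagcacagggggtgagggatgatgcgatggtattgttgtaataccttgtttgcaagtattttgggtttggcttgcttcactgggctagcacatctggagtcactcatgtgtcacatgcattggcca
Cebpb +21.9 kb: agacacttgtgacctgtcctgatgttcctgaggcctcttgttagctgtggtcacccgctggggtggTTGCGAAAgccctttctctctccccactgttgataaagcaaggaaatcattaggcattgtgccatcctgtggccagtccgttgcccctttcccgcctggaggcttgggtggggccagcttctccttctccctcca
Cebpb +71.2 kb: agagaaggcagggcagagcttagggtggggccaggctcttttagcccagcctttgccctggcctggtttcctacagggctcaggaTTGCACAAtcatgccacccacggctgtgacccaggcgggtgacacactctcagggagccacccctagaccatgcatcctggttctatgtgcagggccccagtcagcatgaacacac
Ddit3 +22.3 kb: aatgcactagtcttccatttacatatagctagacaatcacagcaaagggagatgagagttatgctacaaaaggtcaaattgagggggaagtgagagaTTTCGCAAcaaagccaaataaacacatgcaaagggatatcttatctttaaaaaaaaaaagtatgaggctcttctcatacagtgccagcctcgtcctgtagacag
The -39.4 kb site of *Cebpb*, among the strongest of the locus, held none of the 3 sequences, and the other 3 held TTGCNNAA.

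The family differed widely in how much binding its loci received. The *Cebpb* window held 37 sites, where the median over 22367 protein-coding genes was 11, and 98.4% of those genes had fewer. Per 100 kb it had 18.4 sites against a median of 4.81. *Ddit3* had 21 sites, more than 79.3% of genes, whereas *Cebpa* and *Cebpg* with 8, *Cebpd* with 9 and *Cebpe* with 7 lay below the median. Within 1 kb of a TSS of any protein-coding gene or member lay 19 of the 84 sites, 10 of them named for *Ddit3*. Of these 10, only -0.3 kb and +0.9 kb were nearest to the TSS of *Ddit3*, the others to TSSs of neighbouring genes. PU.1 was called in some library at 74 of the 84 sites (76.8% of all sites), C/EBPα at 34 (37.8%) and C/EBPβ at 17 (18.3%). PU.1 alone was called at 49 (58.2% of all sites). All 3 factors were called in some library, not always at the same time point, at 13 sites (8.52% of all sites). Of these, 6 were named for *Cebpb*, 5 for *Ddit3*, and 1 each for *Cebpd* and *Cebpg*. At 48 hpi itself all 3 were called at 8 of them, 1 named for *Ddit3*, with no share over all sites computed. At *Ddit3* -2.7 kb and +0.9 kb the PU.1 reads were centred 397 and 562 bp from the site's centre.

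**Figure D1:**
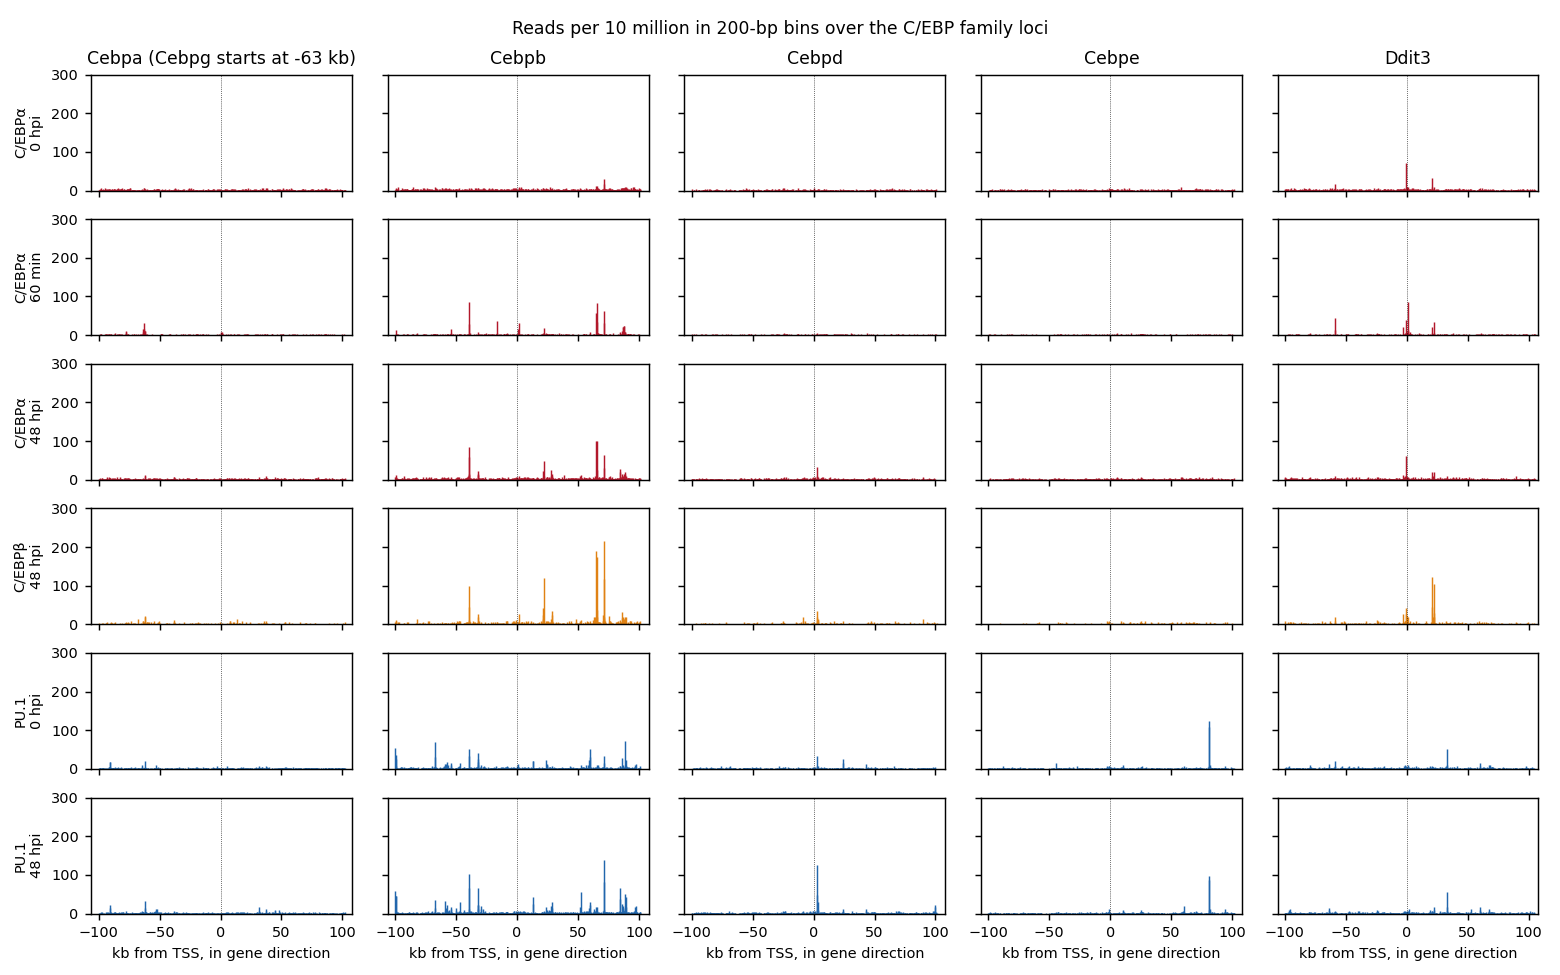
Reads per 10000000 in 200-bp bins (vertical, same scale in all panels) by distance from the TSS in kb (horizontal), for 6 libraries in rows and 5 windows in columns, *Cebpg* being inside the *Cebpa* window. C/EBP peaks crowd around *Cebpb* and the *Ddit3* promoter, *Cebpe* shows a single tall PU.1 peak at +81.4 kb, and the *Cebpa* window stays low.

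C/EBPα was called at 6 of the 84 sites at 0 hpi, where 2.39% of all sites were called. It was called at 18 sites at 10 min (9.26% of all sites), 17 at 30 min (17.1%), 22 at 60 min (24.2%) and 18 at 3 hpi (22.8%). At 12 hpi it was called at 19 sites (12.1%), at 24 hpi at 18 (9.59%) and at 48 hpi at 13 (8.52%). At 24 hpi, 21.4% of the sites of the loci were called, unevenly between them. Of these 18 sites, 13 lay in the *Cebpb* window, 4 in that of *Ddit3* and 1 in that of *Cebpd*, with 0 in the other windows. C/EBPβ was called at 2 sites at 0 hpi (0.914% of all sites), 8 at 3 hpi (6.17%), 4 at 12 hpi (3.34%), 8 at 24 hpi (7.03%) and 15 at 48 hpi (15.6%). PU.1 was called at 26 sites at 0 hpi (32.7%), 29 at 3 hpi (36.3%), 59 at 12 hpi (60.7%), 53 at 24 hpi (46.5%) and 38 at 48 hpi (43.8%). These counts were not set to a common depth: C/EBPα libraries held between 5968544 reads, at 12 hpi, and 24909437, at 10 min. C/EBPβ libraries held between 2901164 and 5843194 reads, and PU.1 libraries between 6574957 and 11349498. At 36 sites PU.1 was called at 12 but not at 0 hpi (31.8% of all sites).

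Between 0 and 48 hpi, C/EBPα was higher at 13 of 84 sites and lower at 0, where 10.9% and 0.885% of all sites were higher and lower. For *Cebpb* -99.9 kb, 1 of the 13, reads were counted at the PU.1 centre. At the C/EBPα centre, 564 bp away, C/EBPα measured 7.89 at 0 and 10.1 at 48 hpi. C/EBPβ was higher at 17 and lower at 0 (14.9% and 0.539% of all sites). PU.1 was higher at 16 and lower at 4 (16% and 10.5% of all sites). The 4 PU.1 decreases were at *Cebpb* -67.6 kb and +0.4 kb, *Cebpd* +24.0 kb and *Ddit3* -58.7 kb. At 23 sites both C/EBPα and PU.1 were called at some of their 5 shared time points. C/EBPα was called first at 4 of them (21.2% of such sites in the genome), PU.1 at 14 (52.5%), and both at the same time point at 5 (26.3%). The count of 4 moved with the processing: it was 1 with libraries thinned to the smallest of each factor, 3 without the libraries of 10, 30 and 60 min, and 3 to 5 under the other alternatives. The 4 were *Cebpb* +65.2 kb and *Ddit3* -0.3 kb, +0.9 kb and +20.9 kb. At *Cebpb* +65.2 kb and *Ddit3* -0.3 kb and +20.9 kb, C/EBPα was already called at 0 hpi, before β-Est. At *Ddit3* +0.9 kb the PU.1 reads of the late call lay 562 bp from the centre. With the early libraries used for C/EBPα, 12 of the 34 C/EBPα sites were called by 60 min and again at 24 or 48 hpi (20.1% of all 29127 C/EBPα sites). Another 11 were called by 60 min but not at 24 or 48 hpi (51.4%), and 11 first at 3 hpi or later (28.5%). These classes rest on calls at unequal depth, so they do not by themselves show lost reads. The 60 min to 48 hpi ratio was 0.857 (0.485 to 1.57) at *Cebpb* +86.5 kb, 1 of the 11 not called late. It was 1.19 (0.637 to 2.37) at *Ddit3* -2.7 kb and 3.12 (0.943 to 16.2) at *Cebpb* +59.6 kb. At the others of these 11 its interval lay above 1. *Cebpb* +88.5 kb counted as early through 10 min alone, with 8.03 against 13.5 at 0 hpi.

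**Figure D2:**
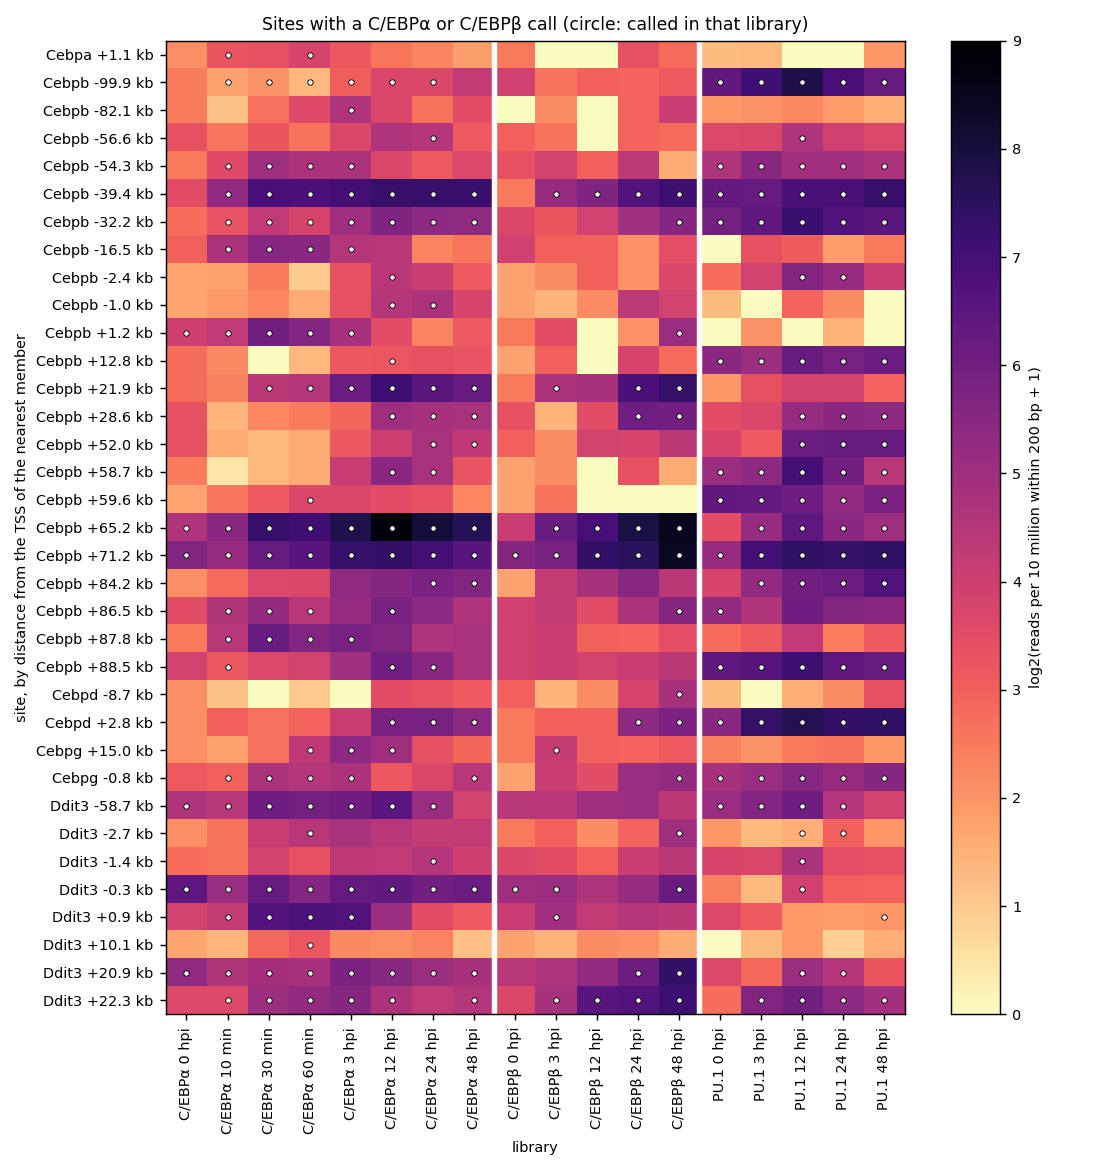
Rows are the 35 sites with a C/EBPα or C/EBPβ call, columns the 18 libraries, and colour log2 of reads per 10000000 within 200 bp plus 1, with a circle where the library had a call. *Cebpb* -39.4 kb, +65.2 kb and +71.2 kb are dark in C/EBPα, C/EBPβ and PU.1 columns, while *Ddit3* +0.9 kb and *Cebpb* -16.5 kb darken only in the middle C/EBPα columns.

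*Cebpb* encodes C/EBPβ, the C/EBP that accumulates in activated macrophages. Most of its upstream sites fall in introns annotated to *Tmem189*, and those from +12.8 to +28.6 kb in an intron of A530013C23Rik. C/EBPα was called at 22 of the 37 sites of its window in some library (37.8% of all sites). At 48 hpi 8 were called (8.52% of all sites), where 51.7% of protein-coding windows had any such site and 99.4% had fewer than 8. C/EBPβ, the product of the gene, was called at 8 sites at 48 hpi (15.6% of all sites), and 64.8% of windows had at least 1. Fewer than 8 were found in 97.4%. At 0 hpi, 3 sites had C/EBPα (2.39% of all sites), 24.5% of windows had any and 98.3% had fewer than 3. These shares of windows were not adjusted for the number of sites, 37 here against a median of 11.

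The intergenic +65.2 kb site had the most C/EBPα reads. C/EBPα measured 23.7 at 0 hpi, 43.0 at 10 min, 156 at 30 min, 135 at 60 min, 222 at 3 hpi, 446 at 12 hpi, 262 at 24 hpi and 199 at 48 hpi. C/EBPβ measured 16.3, 73.6, 121, 237 and 359 at 0, 3, 12, 24 and 48 hpi, and PU.1 9.93, 35.0, 84, 42.3 and 31.5. C/EBPα and PU.1 were highest at 12 hpi, whereas C/EBPβ was highest at 48 hpi. For PU.1 a maximum at 12 hpi was found at 42 of the 74 PU.1 sites of the loci, and the share over all PU.1 sites was not computed. The 48 to 0 hpi ratios were 8.39 for C/EBPα (95% interval 5.30 to 13.9), 21.9 for C/EBPβ (10.4 to 55.4) and 3.18 for PU.1 (1.38 to 8.51).

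The +71.2 kb site was occupied from the start. C/EBPα measured 48.5, 34.9, 74.6, 94.2, 155, 166, 129 and 93.0 from 0 to 48 hpi, and its ratio of 1.92 (1.30 to 2.86) stayed under 2-fold. C/EBPβ measured 46.7, 54.8, 165, 186 and 331, a ratio of 7.09 (4.45 to 11.9). PU.1 measured 35.5, 128, 174, 159 and 169, a ratio of 4.77 (3.13 to 7.57). This was the only one of the 37 sites with C/EBPβ called at 0 hpi.

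The -39.4 kb site lies in an intron of *Tmem189*. C/EBPα measured 10.2, 38.1, 121, 113, 129, 157, 154 and 147 from 0 to 48 hpi, so that much of its rise was seen by 30 min. The 60 min value was 0.769 times that of 48 hpi (0.612 to 0.971), with the former from the HiSeq2000 and the latter from the Genome Analyzer. C/EBPβ measured 4.67, 34.2, 51.7, 99.3 and 142, and PU.1 78.0, 74.5, 112, 115 and 156. The C/EBP ratios were 14.5 (7.38 to 32.5) for C/EBPα and 30.4 (8.11 to 256) for C/EBPβ, while PU.1, present in the pre-B state, changed by 2.00 (1.46 to 2.76), just short of the threshold. With reads within 500 bp, the C/EBPβ log2 ratio there was 2.98.

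Further sites of *Cebpb* separated the factors. At +21.9 kb, C/EBPα measured 5.64, 4.01, 20, 22.5, 69.2, 139, 88.3 and 72.9, and C/EBPβ 4.67, 25.7, 27.6, 112 and 160. PU.1 there measured 2.84, 9.13, 13.1, 13.2 and 6.69 and was called in no library. It was the only site of the loci with C/EBPα called at 48 hpi and PU.1 never called, and the share over all sites was not computed. PU.1 reads there were still higher at 12 than at 0 hpi (ratio 4.61, 1.06 to 41.8), so the missing call does not show an absence of PU.1. At -32.2 kb, PU.1 preceded the C/EBPs with 59.6, 82.1, 144, 104 and 87.9, while C/EBPα went from 5.64 to 39.0 (ratio 6.91, 2.66 to 22.8) and C/EBPβ from 11.7 to 45.3 (ratio 3.88, 1.44 to 13.1). At +28.6 kb all 3 factors were higher late, C/EBPα being 9.02 at 0, 6.29 at 3, 30.2 at 12 and 26.4 at 48 hpi, C/EBPβ 9.34 and 61.1, and PU.1 9.93 and 40.1 at 0 and 48 hpi. The +84.2 kb site was also higher in all 3, with ratios of 14.1 for C/EBPα (4.48 to 71.5), 8.44 for C/EBPβ (1.2 to 366) and 8.09 for PU.1 (4.10 to 18.2), and C/EBPβ, not called there, measured 44.8 at 24 but 19.7 at 48 hpi.

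At the 4 sites from -2.4 to +1.2 kb, C/EBPα was not called at 48 hpi. Its +1.2 kb site (chr2:167515401-167515800) lies in the 3′ untranslated part of *Cebpb* and holds TGATGCAA near its centre. C/EBPα there measured 14.7, 18.5, 62.3, 46.6, 27.9, 10.1, 3.96 and 7.54, called up to 3 hpi and not after, and the 60 min value was 6.18 times that of 48 hpi (2.73 to 17.3). C/EBPβ measured 4.67, 10.3, 0, 3.20 and 33.5, so that the factor was called when C/EBPα no longer was (ratio 7.17, 1.70 to 64.0). PU.1 was between 0 and 3.04. In the coding sequence at +0.4 kb, the only site within 1 kb of the TSS, PU.1 alone was called, with 21.3, 25.9, 27.1, 36.1 and 8.60, lower at 48 hpi (ratio 0.404, 0.156 to 0.986). There C/EBPα was 0 to 6.92 and C/EBPβ 0 to 1.71. Over all protein-coding genes, 41% had a site that close to a TSS. At -1.0 kb, C/EBPα was called at 12 hpi (21.8) and 24 hpi (25.1) and measured 12.6 at 48 hpi and 2.26 at 0 hpi. At -2.4 kb it was called at 12 hpi (20.1), where PU.1 measured 49.5.

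Of the 22 C/EBPα sites of the window, 6 were called by 60 min and not at 24 or 48 hpi, beside 51.4% of C/EBPα sites over the genome. This class rests on calls. At +86.5 kb, which belongs to it, C/EBPα measured 20.5 at 60 min, 55.3 at 12 hpi, 40.9 at 24 hpi and 23.9 at 48 hpi. At -16.5 kb, 1 of the 6, in an intron of *Tmem189*, C/EBPα measured 6.77, 24.9, 43.8, 42.5, 22.5, 20.1, 3.96 and 5.03, and the 60 min value was 8.45 times that of 48 hpi (3.18 to 31.7). PU.1 was between 0 and 9.13 there and C/EBPβ between 3.20 and 14, neither being called. The +87.8 kb site was similar in onset, with C/EBPα at 4.51, 20.9, 73.1, 49.1, 56.6, 48.6, 23.7 and 26.4, but it stayed above its 0 hpi value (ratio 5.85, 1.97 to 23.4). At +58.7 kb C/EBPα was called at 12 and 24 hpi, with 4.51, 0.401, 1.54, 2.05, 16.2, 41.9, 26.4 and 8.80, while PU.1 measured 32.6, 41.1, 124, 60.8 and 21. Of the 37 sites of the window, 13 were called for PU.1 at all 5 time points (20% of all sites). Among the 13, 9 were also called for C/EBPα in some library, beside 22 of the 37 and 37.8% of all sites. The share among all sites with PU.1 at all 5 time points was not computed. At -99.9 kb and +12.8 kb, both among the 9, the PU.1 and C/EBPα reads lay apart. At -99.9 kb C/EBPα was called from 10 min to 24 hpi, 564 bp from the PU.1 centre. It measured at most 31.8 there, while PU.1 reached 224 at its own centre. At +12.8 kb C/EBPα was called at 12 hpi alone, and its reads were centred 568 bp from the site's centre.

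**Figure D3:**
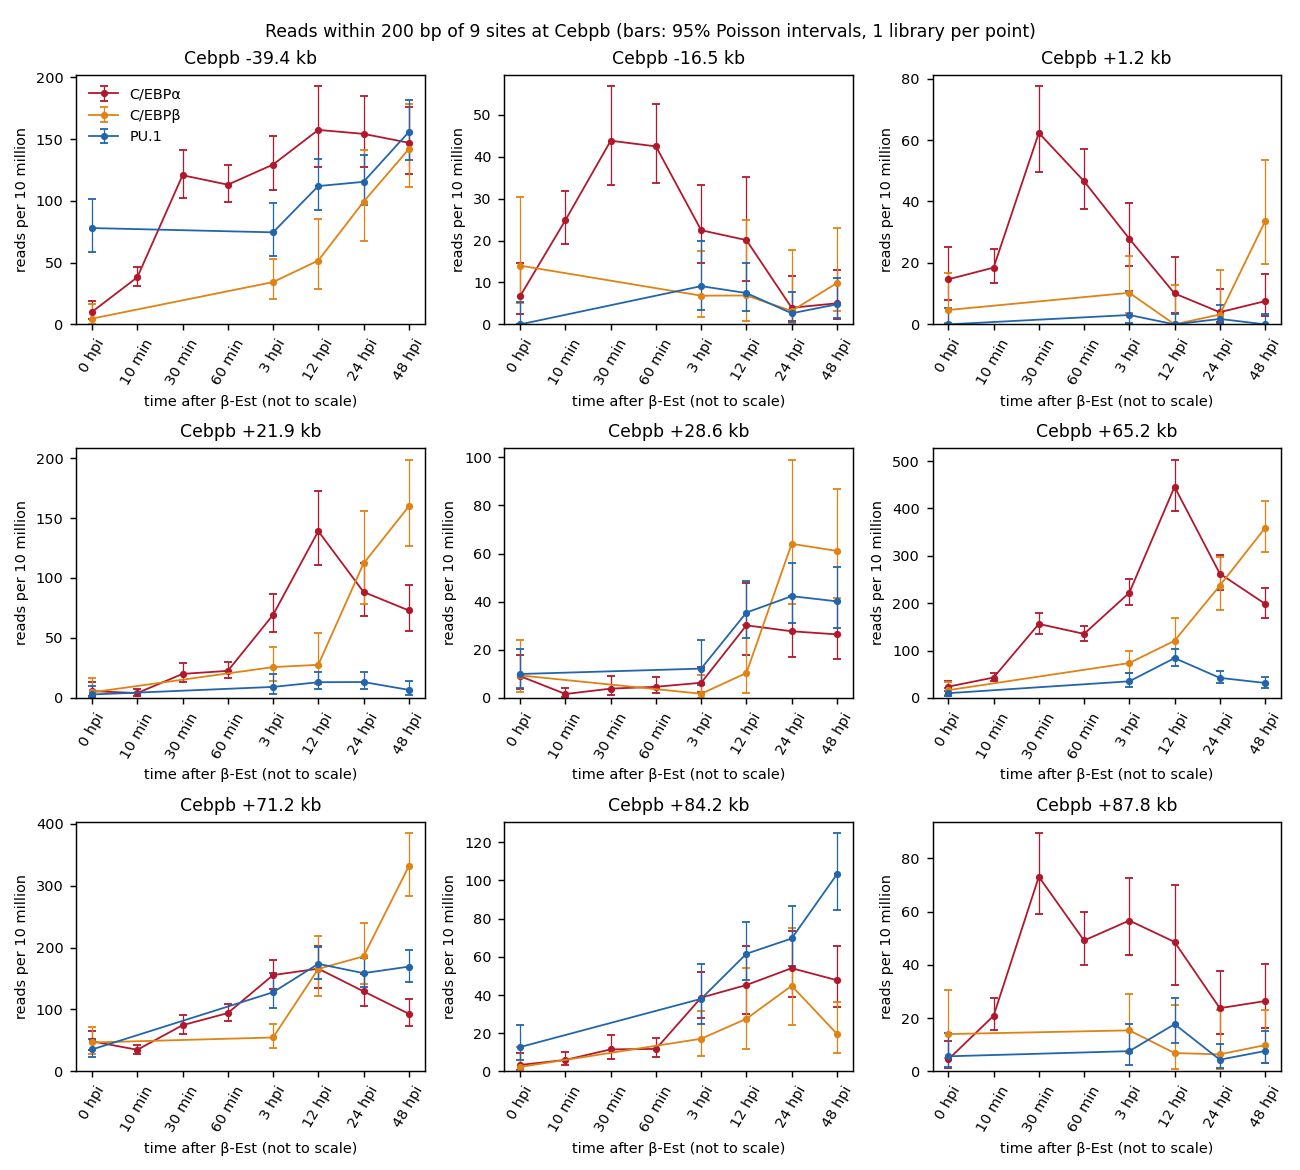
Reads per 10000000 within 200 bp of 9 sites at *Cebpb* (vertical, from 0) by time after β-Est (horizontal, evenly spaced), with 1 library per point and bars for 95% Poisson intervals. C/EBPβ climbs to 48 hpi at +65.2 kb, +71.2 kb, -39.4 kb and +21.9 kb, and C/EBPα alone peaks at 30 min at -16.5 kb.

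*Ddit3* encodes CHOP and was the only member with C/EBP called within 1 kb of its TSS at 0 hpi. The -0.3 kb site (chr10:126727401-126727800), shown above with its adjacent C/EBP and C/EBP-ATF matches, lies in an intron of the transcript RP24-341K21.6. C/EBPα was called there in all 8 libraries and measured 85.7, 33.3, 76.9, 47.1, 75.5, 80.4, 60.7 and 69.1. The 48 to 0 hpi ratio of 0.807 (0.560 to 1.16) did not pass the threshold in either direction, and the lowest value was that of 10 min. C/EBPβ measured 30.4, 32.5, 24.1, 35.2 and 71, higher at 48 hpi (ratio 2.34, 1.21 to 4.80), and PU.1 measured 4.25, 1.52, 14, 7.05 and 6.69. Hence C/EBPα reads at this promoter did not differ beyond counting error between 0 and 48 hpi, with 1 library each and no control library. For low C/EBPα signals in uninduced cells the paper proposes some leakiness of the transgene. Its part at this promoter was not tested.

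Of the 6 sites with C/EBPα called at 0 hpi, the others were *Ddit3* +20.9 kb and -58.7 kb, and *Cebpb* +65.2 kb, +71.2 kb and +1.2 kb. TGATGCAA lay within 75 bp of the centre at 3 of the 84 sites, *Ddit3* -0.3 kb, *Ddit3* +20.9 kb and *Cebpb* +1.2 kb, and at 1.94% of all sites. This sequence was searched for after the sites had been seen, so its place among the sites called at 0 hpi is a description only. ATF4 with C/EBP partners is known to act through this sequence in amino acid and endoplasmic reticulum stress.

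The +20.9 kb site (chr10:126748601-126749000) has its centre 13 bp from a TSS of *Mars*, which encodes the methionyl-tRNA synthetase. C/EBPα measured 39.5, 22.9, 28.5, 27.6, 52.1, 43.6, 31.6 and 27.7, with no change by 48 hpi past the threshold (ratio 0.701, 0.392 to 1.23). C/EBPβ measured 21, 24.0, 37.9, 67.2 and 164, a ratio of 7.78 (3.91 to 17.6). PU.1 measured 11.3, 6.08, 31.7, 22 and 8.60. Here C/EBPβ gained late while C/EBPα did not.

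At +22.3 kb, in intergenic sequence, C/EBPβ also increased, with 11.7, 27.4, 93.1, 99.3 and 138 (ratio 11.8, 4.83 to 37.5). C/EBPα measured 11.3, 11.2, 32.3, 38.4, 44.9, 25.1, 18.5 and 22.6, a ratio of 2.01 (0.878 to 4.87) whose interval included 1. PU.1 was called from 3 hpi and measured 5.67, 48.7, 63.5, 41.4 and 28.7, higher at 48 hpi (ratio 5.05, 1.78 to 19.7).

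An intron of *Ddit3* held a short-lived C/EBPα site. At +0.9 kb (chr10:126728601-126729400), C/EBPα measured 13.5, 17.3, 100.0, 110, 102, 31.8, 10.5 and 7.54. The 60 min value was 14.6 times that of 48 hpi (6.59 to 40.2), and 48 hpi was not above 0 hpi (ratio 0.557, 0.172 to 1.6). C/EBPβ measured 16.3, 29.1, 17.2, 22.4 and 19.7, and PU.1 at most 11.3. The 30 and 60 min libraries came from the HiSeq2000 and the 3 hpi library from the Genome Analyzer. None of the 3 sequences was found within 75 bp of the centre.

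In an intron of *Kif5a* at -58.7 kb, C/EBPα measured 23.7, 20.9, 65.4, 59.4, 65.6, 90.5, 33.0 and 13.8. PU.1 measured 32.6, 48.7, 66.3, 21.1 and 13.4, lower at 48 than at 0 hpi (ratio 0.410, 0.195 to 0.832), and C/EBPβ 21, 20.5, 31.0, 32.0 and 19.7. Both C/EBPα and PU.1 were highest at 12 hpi and then declined. A PU.1 maximum at 12 hpi was found at 42 of the 74 PU.1 sites of the loci, a share that was not computed over the genome. Of the PU.1 libraries, that of 12 hpi had the most calls, at 60.7% of all sites. At -2.7 kb, in an intron of *Mbd6*, C/EBPα went from 3.38 to 17.6 (ratio 5.20, 1.45 to 28.2) and C/EBPβ from 4.67 to 31.5 (ratio 6.75, 1.59 to 60.5). Of the 21 sites of the window, 13 were called for PU.1 alone, beside 58.2% of all sites. The tallest of these, at the *Arhgap9* promoter at +32.9 kb, measured 58.1, 91.3, 133, 81.1 and 74.5.

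*Cebpd* encodes C/EBPδ, an acute-phase member of the family. GENCODE vM1 lists it as a pseudogene, so that it was not among the protein-coding genes counted above. Its window held a single C/EBPα site, at +2.8 kb (chr16:15890001-15890400) in an intron of 2310008H04Rik. C/EBPα measured 3.38, 6.82, 5.38, 6.65, 16.2, 55.3, 56.7 and 41.5, and it was called from 12 hpi (48 to 0 hpi ratio 12.3, 3.85 to 62.5). C/EBPβ measured 4.67, 6.85, 6.89, 41.6 and 53.2 (ratio 11.4, 2.86 to 98.9). PU.1 measured 42.5, 161, 203, 162 and 172 (ratio 4.04, 2.74 to 6.17). PU.1 was called before induction and measured 161 by 3 hpi, when C/EBPα was not yet called.

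Nearby at +3.5 kb, PU.1 measured 8.51, 12.2, 42.0, 50.2 and 41.1 (ratio 4.83, 2.05 to 13.9), with C/EBPα at most 18.4, not called, and C/EBPβ at most 11.8. At -8.7 kb, C/EBPβ was the only factor called, at 48 hpi alone, with 7.01, 1.71, 3.45, 12.8 and 27.6 (ratio 3.94, 1.10 to 21.4). PU.1 declined at +24.0 kb, with 38.3, 39.5, 26.1, 20.3 and 17.2 (ratio 0.449, 0.233 to 0.846). C/EBPα there measured 2.01 to 6.29 and C/EBPβ 4.67 to 10.3.

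*Cebpe* encodes C/EBPε, which acts late in granulocyte differentiation. None of its 7 sites was called for C/EBPα or C/EBPβ in any library, while all 7 were called for PU.1. Over all sites, 58.2% were called for PU.1 alone. Over all protein-coding windows, 78.1% had a C/EBPα site in some library, so a window without one is not rare. The site 0.9 kb upstream of the TSS, shown above with a PU.1 consensus across its centre, had PU.1 at 15.6, 7.60, 47.6, 23.8 and 15.3. It was called from 12 hpi on, and the 12 to 0 hpi ratio was 3.05 (1.57 to 6.49), while the 48 to 0 hpi ratio included 1 ( 0.980, 0.427 to 2.34). C/EBPα measured 1.26 to 7.89 there and C/EBPβ 3.20 to 10.3. The tallest PU.1 site, at +81.4 kb, measured 230, 186, 131, 152 and 180, and C/EBPα at most 8.38. At the other sites with the most C/EBPα reads, +60.4 kb in the coding sequence of *Acin1* and +25.3 kb in its untranslated part, C/EBPα stayed between 0 and 6.92, C/EBPβ between 0 and 7.01, and PU.1 between 6.08 and 23.3.

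*Cebpa* and *Cebpg* lie on chromosome 7 and are transcribed away from each other. *Cebpg* encodes C/EBPγ, a widely expressed partner. The site at its promoter spans 2000 bp (chr7:35840401-35842400) across the TSS. Around its centre at -0.8 kb, C/EBPα measured 7.89, 6.82, 25.4, 22.5, 25.2, 8.38, 11.9 and 20.1, C/EBPβ 2.34, 15.4, 10.3, 32.0 and 37.4, and PU.1 26.9, 33.5, 44.8, 34.4 and 44.9. PU.1 was called at every time point, C/EBPβ at 48 hpi (ratio 16, 2.55 to 666), and C/EBPα from 10 min to 3 hpi and at 48 hpi (ratio 2.55, 0.992 to 7.32, not past the threshold). Within 500 bp of the TSS itself, C/EBPα reads per 10000000 were 28.9, 54.6 and 57.3 at 10, 30 and 60 min and 6.29 to 20.1 in the other C/EBPα libraries. All 3 high values were thus from the HiSeq2000 libraries, and the part of the sequencer in them was not tested.

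In an intron of *Pepd*, at +15 kb and thus past the end of *Cebpg*, C/EBPα measured 3.38, 2.41, 5.38, 18.9, 40.4, 30.2, 9.23 and 6.29, highest at 3 hpi. C/EBPβ measured 4.67, 17.1, 6.89, 6.40 and 7.88 and was called at 3 hpi. PU.1 was 2.87 to 5.29. Both C/EBPs were thus called here together at 3 hpi and not at 24 or 48 hpi, without PU.1, at a site with a TTGCNNAA match.

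*Cebpa* encodes C/EBPα itself, and no site was called for C/EBPα at its promoter. The sole C/EBPα call assigned to the gene was at +1.1 kb, in its coding sequence, at 10 and 60 min. There C/EBPα measured 3.38, 8.43, 9.23, 12.8, 8.09, 5.03, 3.96 and 2.51, C/EBPβ 0 to 9.61 and PU.1 0 to 2.87. The transgene holds the C/EBPα coding sequence, so reads over the whole coding part (1077 bp) were compared with those over 2 kb on each side. Per base, the coding part had 3.71 times the reads of its flanks at 10 min (2.50 to 5.52), 5.23 times at 30 min (3.11 to 8.90), 7.43 times at 60 min (4.72 to 11.9) and 2.41 times at 3 hpi (1.10 to 5.10). In the other C/EBPα libraries the ratio was 0.782 at 0 hpi (0.193 to 2.35), 1.53 at 12 hpi (0.536 to 3.88), 0.990 at 24 hpi (0.239 to 3.11) and 1.06 at 48 hpi (0.254 to 3.38). In C/EBPβ and PU.1 libraries it was 0 to 2.48, and every interval included 1.

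The excess was spread over the coding part. Its first 5 pieces of 200 bp each held 8 to 11 reads at 10 min, 1 to 12 at 30 min and 9 to 16 at 60 min. Binding to the endogenous exon and reads from the transgene cannot be told apart by position, and the libraries with the largest excess were those of the HiSeq2000. The +1.1 kb call is therefore given without reading it as a site of autoregulation.

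**Figure D4:**
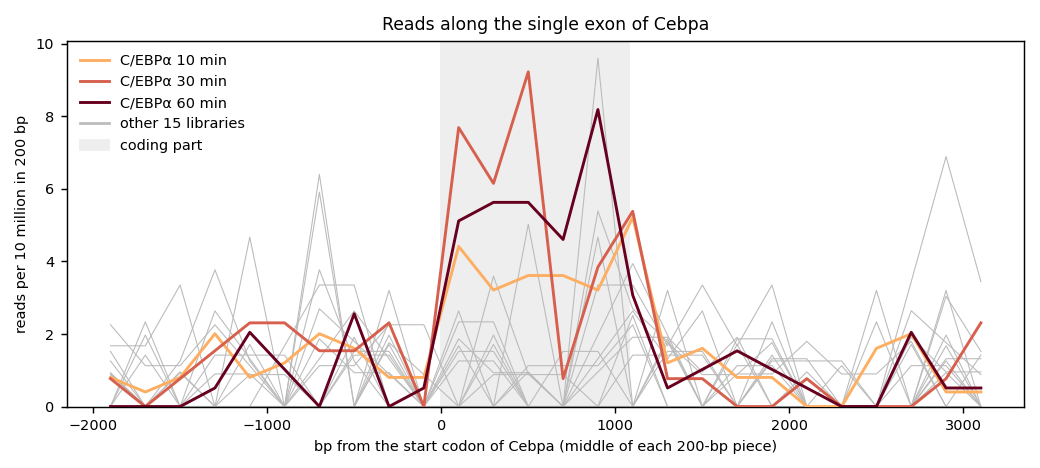
Reads per 10000000 in 200-bp pieces (vertical) along *Cebpa* by distance from its start codon (horizontal, bp), with the coding part shaded. The C/EBPα libraries of 10, 30 and 60 min are raised over the shaded part and fall back past its ends, while the other 15 libraries are in grey. One of the 15, C/EBPα at 3 hpi, held 2.41 times the flank density over the coding part (1.10 to 5.10).

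PU.1 arrived at intergenic sites behind *Cebpa*. At +37.4 kb it measured 7.09, 7.60, 26.1, 27.3 and 20.1 and was called from 12 hpi on (ratio 2.83, 1.04 to 9.61). C/EBPα there measured 4.51, 2.41, 0, 1.54, 4.49, 3.35, 6.59 and 11.3 and was not called, and C/EBPβ measured 0 to 5.91. At +31.9 kb, PU.1 measured 11.3, 12.2, 59.7, 52.9 and 21, with a 12 to 0 hpi ratio of 5.27 (2.52 to 12.7) and a 48 to 0 hpi ratio of 1.85 (0.795 to 4.81). At +44.6 kb it was 0 at both 0 and 3 hpi and 7.47, 15 and 14.3 after that. With 7954398 reads at 48 hpi, a 200-bp bin needed 10 reads to be called, so weak C/EBPα binding at these sites was not detectable at this depth.

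**Figure D5:**
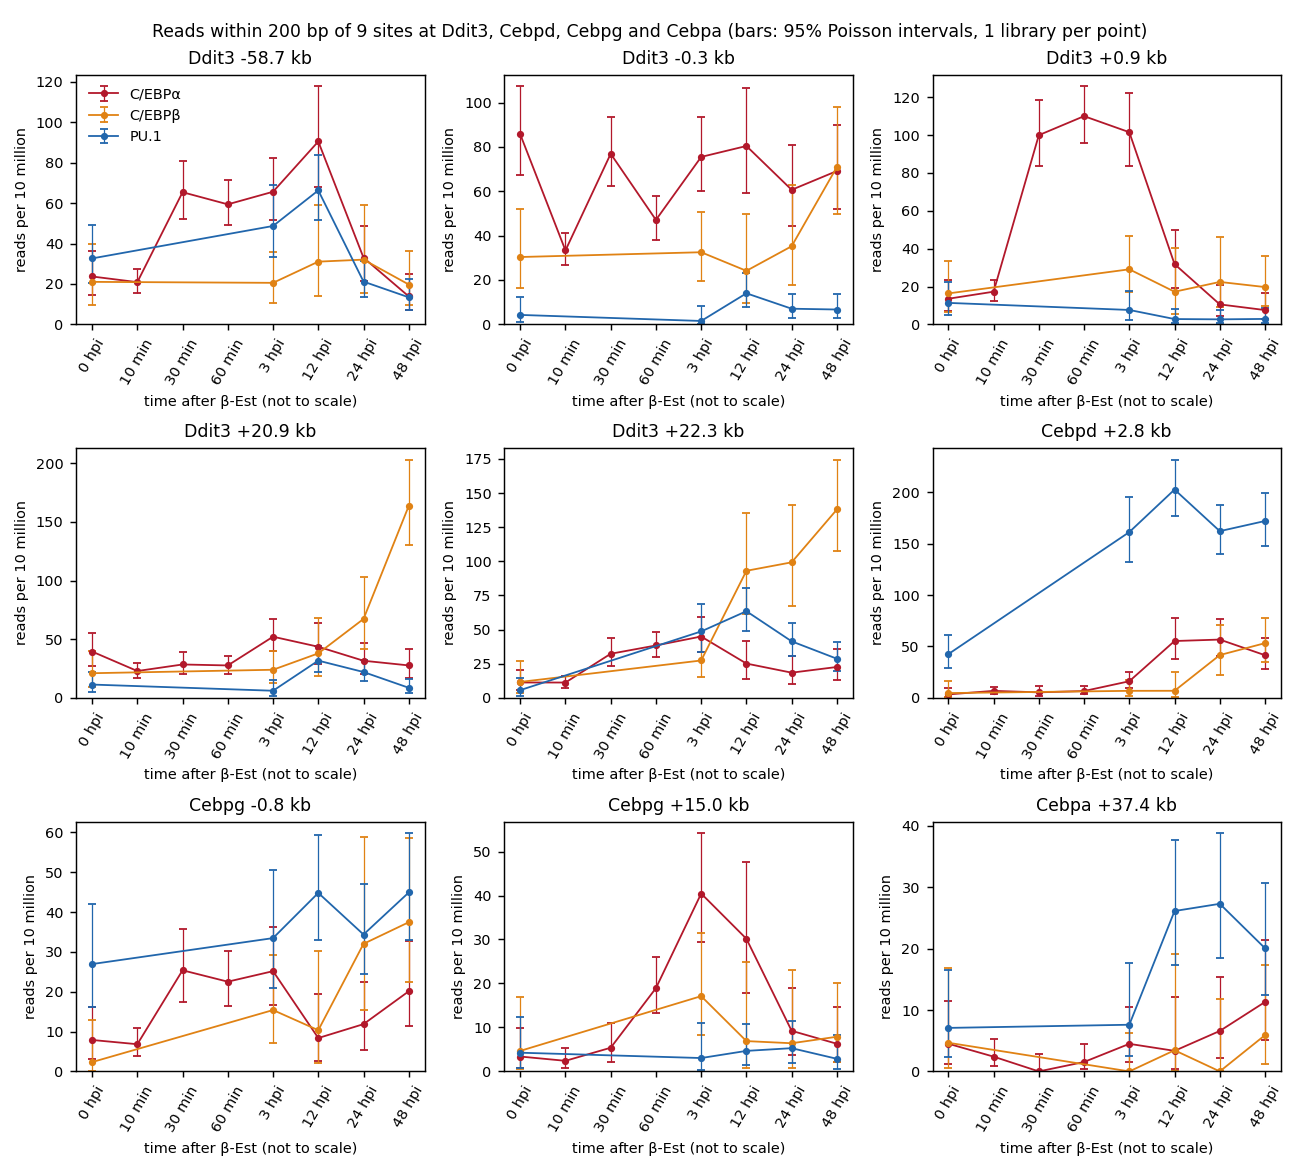
Reads per 10000000 within 200 bp of 9 sites at *Ddit3*, *Cebpd*, *Cebpg* and *Cebpa* (vertical, from 0) by time after β-Est (horizontal, evenly spaced), with 1 library per point and bars for 95% Poisson intervals. C/EBPα at *Ddit3* +0.9 kb is high at 30 min, 60 min and 3 hpi, and C/EBPβ at *Ddit3* +20.9 kb and +22.3 kb is highest at 48 hpi.

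Other gene lists were set beside the family by the number of their windows with a C/EBPα site. Among 12 genes for leucine zipper partners and relatives, 6 had one at 0 hpi and 11 at 48 hpi, where 24.5% and 51.7% of all protein-coding windows did. *Atf3*, a stress-induced member of the ATF family, had 13 sites with C/EBPα at 48 hpi, *Batf3* 8, and *Hlf* 0. Among 11 matched regulators of C/EBP genes or proteins, 8 and 9 had one, with 6 sites at *Sfpi1*, the PU.1 gene, and 7 at *Stat3*. Among 15 myeloid genes known as C/EBP targets, 6 and 14 had one, *Lcn2* having 0 at 48 hpi. For the family the numbers were 2 and 5 of 6, *Cebpa* and *Cebpg* sharing their site. The median number of sites with C/EBPα at 48 hpi was 1 in the family and over all protein-coding genes, 2 for the partners, and 3 for the regulators and for the myeloid targets. The lists also differed in sites of any factor, with a median of 18 per window for the partners, 27 for the regulators, 21 for the myeloid targets, 8.5 for the family and 11 over all protein-coding genes.

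The windows most like each member's were sought by the correlation of summed reads over their sites across the 18 libraries, on a log2 scale and centred within factor. For *Cebpb* these were *Blm* (r = 0.989), *Pacsin2* (0.989) and D830046C22Rik (0.988), and for *Cebpd* *Nup155* (0.978), *Rasgef1a* (0.977) and *Rrm2* (0.972). For *Ddit3* they were H2afv (0.969), *Ppia* (0.961) and *Ttyh1* (0.959), for *Cebpa* *Hspg2* (0.942), and for *Cebpg* *Hspg2* again (0.954). *Cebpe* had the weakest best match, *Fam124a* (0.878). Windows share the libraries and their depth, so these values are descriptions only.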

How the data were processed

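ChIP-seq reads of C/EBPα (8 libraries), C/EBPβ (5) and PU.1 (5) in C10 cells were used, grouped by factor and time point from the sample titles. Alignment by the authors was to mm9, by ELAND or Bowtie and with no mismatch allowed; reads with several places and identical reads were removed. The authors deposited 1 line per read with its position and strand, and the submitters' processing notes name Bowtie and HOMER without versions. Columns of positions carry no normalization. Reads sharing position and strand were counted once (at most 2.51% of a library), and 1 line without a position was dropped. No read lay beyond a chromosome end of the mm9 sequence (NCBIM37).

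The 5′ end of each read was moved 75 bp inward and counted in 200-bp bins. A bin was called at a Poisson p of at most 1e-07 for a genome of 2000000000 bp, a density 4 times that within 10 kb and, against that density, a Poisson p up to 0.0001. This followed the rules of HOMER, which was not run. Called bins of all 18 libraries were joined across at most 1 bin into sites, centred on the 151 bp with the most reads after scaling each library to 10000000. At 4 of the 84 sites, 10 of 373 calls had fewer reads within 200 bp of this centre than a bin needed to be called. Further calls at wide sites may also rest on reads away from the centre. The procedure was tested on simulated data of the depth of C/EBPα at 48 hpi. Genes came from GENCODE vM1. Every member is named. Sites within 1 kb of a member's TSS and the 3 with the most C/EBPα reads per window are named, the weakest by ranges, and other sites were chosen after their values were seen. The members and lists were chosen with earlier results of these data known. Alternatives varied thresholds, bins, shift, depth, duplicates, joining, window, scaling and the counting distance. Python 3.11.15 with numpy 2.4.6, pandas 2.3.3 and scipy 1.17.1 was used.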

Additional observations from a re-analysis of the deposited data

How the results depend on the processing

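Of 101 recomputed counts and shares, 96 stayed within 1.5 times the value reported or within its interval. With the gene span plus 50 kb, the loci held 47 sites in place of 84, PU.1 at 0 hpi was called at 12 in place of 26, C/EBPα was higher at 8 and PU.1 at 9 sites at 48 hpi; the window is shorter by construction. With libraries thinned to the smallest of each factor, C/EBPα was called before PU.1 at 1 site in place of 4. With a stricter and a looser Poisson threshold the loci held 73 and 112 sites, and C/EBPα was called at 48 hpi at 12 and 15. Leaving out the libraries of 10, 30 and 60 min, an alternative chosen after the data were seen, gave 84 sites, 13 of them with C/EBPα at 48 hpi, and 3 with C/EBPα before PU.1. These were not all the same sites, since *Cebpa* +1.1 kb and *Ddit3* +10.1 kb were called in the left-out libraries alone. Of 174 recomputed log2 ratios at the sites named by rule, 173 stayed within the interval of the reported ratio and none with a called change turned its sign; the exception is the C/EBPβ ratio at *Cebpb* -39.4 kb within 500 bp. No paired analysis was possible because each factor and time point had 1 library. The smallest library, C/EBPβ at 12 hpi, had 2901164 reads, which limits the calls in it.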
